A study of Mus musculus with 4 samples.

Results

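The cells described here were thymocytes that carried at least 3 transcripts of Itm2a, a membrane protein gene switched on in thymocytes that receive a T cell receptor (TCR) signal, and that showed no sign of division or of thymic exit. They were chosen by count: at least 1000 unique molecular identifiers (UMIs, each tagging 1 captured transcript) in the barcode that stands for a cell, Itm2a at 3 or more, and 0 UMIs of Mki67 and Top2a (cell division), of S1pr1 (the exit receptor) and of Ms4a4b (mature T cells). The rule kept 254 of 8641 barcodes with at least 1000 UMIs, out of 8961 in the tables. There were 115 in the library labelled turnover, or 2.72% of its barcodes (95% exact binomial interval 2.25 to 3.26), and 139 in the library labelled autonomy, or 3.15% (2.65 to 3.71). They were set against Rag1-positive cells, which are barcodes with at least 1000 UMIs, 0 Itm2a, at least 1 UMI of Rag1 (1 subunit of the enzyme that rearranges TCR genes) and 0 Mki67 and Top2a. That pool held 2489 barcodes in turnover and 3158 in autonomy.

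Both conditions used wild type mouse thymi that had been transplanted 28 days earlier, and in each the thymocytes were sorted to hold the stages DN3 to DN4, the immature single positive cells (ISP) and the double positive (DP) cells. DN3 and DN4 are early stages with neither CD4 nor CD8, and DP cells carry both. In thymus transplantation, turnover is the state in which host progenitors replace the donor thymocytes, and autonomy is the state in which donor thymocytes persist by self-renewal. The labels gave the conditions by these names only. The hosts, their genotype, the age and the number of animals are not in the labels. Each condition was 1 library, so no spread between animals was available and no test across animals could be run: intervals below cover counting error only, and neither UMIs of 1 cell nor cells of 1 thymus are independent.

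Immature DP thymocytes rearrange the TCR alpha locus until a receptor meets self peptide on MHC. A receptor that signals on contact switches on immediate early transcription factors such as Nr4a1 and Egr2, surface CD69 and CD5, and shuts down the recombinase. Strong signals add PD-1 (Pdcd1) and the pro-apoptotic factor Bim (Bcl2l11), and lead to death by negative selection or to diversion into agonist-selected lineages; weaker ones lead to positive selection. Signal strength itself was not measured in these libraries.

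The autonomy library was made up of repeated TCR beta (TRB) chains with different TCR alpha (TRA) partners, and the Itm2a-high cells took part in this. Shown first are the junctions (CDR3, the stretch that joins the V and J segments and contacts the peptide) of the 4 TRB chains found in the most Itm2a-high cells of autonomy, and then every TRA junction found in the Itm2a-high cells that carried TRB chain 1. Sequences run 5′ to 3′ and are taken from the deposited contig calls. Capitals mark bases outside the start shared by at least 30% of the different chains with the same V segment and outside the end shared by at least 30% of those with the same J segment, which leaves roughly the part made at the junction.
TRB chain 1, TRBV1 with TRBJ2-4: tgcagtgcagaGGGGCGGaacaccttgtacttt
TRB chain 2, TRBV2 with TRBJ2-1: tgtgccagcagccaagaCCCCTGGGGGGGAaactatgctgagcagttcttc
TRB chain 3, TRBV31 with TRBJ2-4: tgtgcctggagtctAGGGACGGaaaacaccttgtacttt
TRB chain 4, TRBV13-2 with TRBJ2-4: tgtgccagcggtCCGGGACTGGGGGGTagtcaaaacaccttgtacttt
TRA, TRAV13D-1 with TRAJ17: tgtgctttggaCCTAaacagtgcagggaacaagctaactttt
TRA, TRAV4-2 with TRAJ15: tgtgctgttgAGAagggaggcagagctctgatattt
TRA, TRAV7-4 with TRAJ24: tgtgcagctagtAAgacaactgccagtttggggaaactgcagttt
TRA, TRAV3-3 with TRAJ33: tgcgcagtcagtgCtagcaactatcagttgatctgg

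TRB chain 1 was held by 5 Itm2a-high cells, 56 Rag1-positive cells and 72 barcodes of the library in all. TRB chain 2 was held by 5, 21 and 42, TRB chain 3 by 5, 12 and 24, and TRB chain 4, the most frequent TRB chain of the library, by 4, 134 and 191. The 4 TRA junctions beside TRB chain 1 came from 4 of its 5 Itm2a-high cells and differed in V segment, J segment and sequence.

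The gene expression tables held 4374 barcodes and 20163286 UMIs in turnover, and 4587 barcodes and 16388810 UMIs in autonomy. In all, 31 barcode sequences occurred in both libraries, of which 1 was an Itm2a-high cell in each. The Itm2a-high cells were deeper than the Rag1-positive cells, with a median of 2893 against 1879 UMIs in turnover and 4142 against 2285 in autonomy. Their summed UMIs came to 418648 and 674805, so 3 UMIs, the limit that a count of 0 allows, correspond to 7.17 and 4.45 CPM (UMIs of the gene per 1000000 UMIs of the pool). Of the barcodes with Itm2a at 3 or more, 61 in turnover and 22 in autonomy had been set aside for division transcripts, and 19 and 66 for S1pr1 or Ms4a4b. No doublet caller was run. Autonomy held cells of both sexes: among its Itm2a-high cells 81 had UMIs of Xist and none of Y-linked genes, 24 the reverse, 32 neither and 2 both, while no turnover Itm2a-high cell had Xist.

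The label of these cells was checked against 5 marker genes, of which Itm2a chose them. Itm2a (chrX:107397195-107403360, GRCm38) had a median of 8 UMIs per cell in turnover and 13 in autonomy, and at most 53 and 64. The other 4 are protein-coding genes on other chromosomes. Nr4a1 (chr15:101253902-101274795), which encodes the nuclear receptor Nur77, stood at 599.5 CPM in the Itm2a-high cells of turnover and 4.31 CPM in the Rag1-positive cells, 139-fold apart (95% counting interval 90.6 to 223), and at 929 and 5.90 CPM in autonomy, 157-fold (117 to 217). Pdcd1 (chr1:94038305-94052553), the inhibitory receptor PD-1, stood at 287 and 0.938 CPM in turnover, 306-fold (127 to 959). In autonomy Pdcd1 stood at 421 and 0.257 CPM, the latter resting on 2 UMIs in the Rag1-positive cells, 1640.2-fold (449.9 to 13609). Egr2 (chr10:67534469-67542188), a zinc finger factor induced by TCR signals, stood at 182 and 1.31 CPM in turnover, 138-fold (64.0 to 356), and at 205 and 0.641 CPM in autonomy, 319-fold (133 to 997). Cd69 (chr6:129267324-129275375), an early activation antigen that holds cells in the thymus, stood at 547 and 34.5 CPM in turnover, 15.9-fold (13.0 to 19.4), and at 559 and 29.6 CPM in autonomy, 18.9-fold (16.0 to 22.3). All 4 were higher in the Itm2a-high cells of both libraries. Against all cells without Itm2a and without division transcripts, Rag1-positive or not, the ratios in turnover and autonomy were smaller, at 29.1 and 32.9 for Nr4a1, 77.7 and 157 for Pdcd1, 20 and 20.9 for Egr2, and 7.98 and 9.87 for Cd69.

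**Figure D1:**
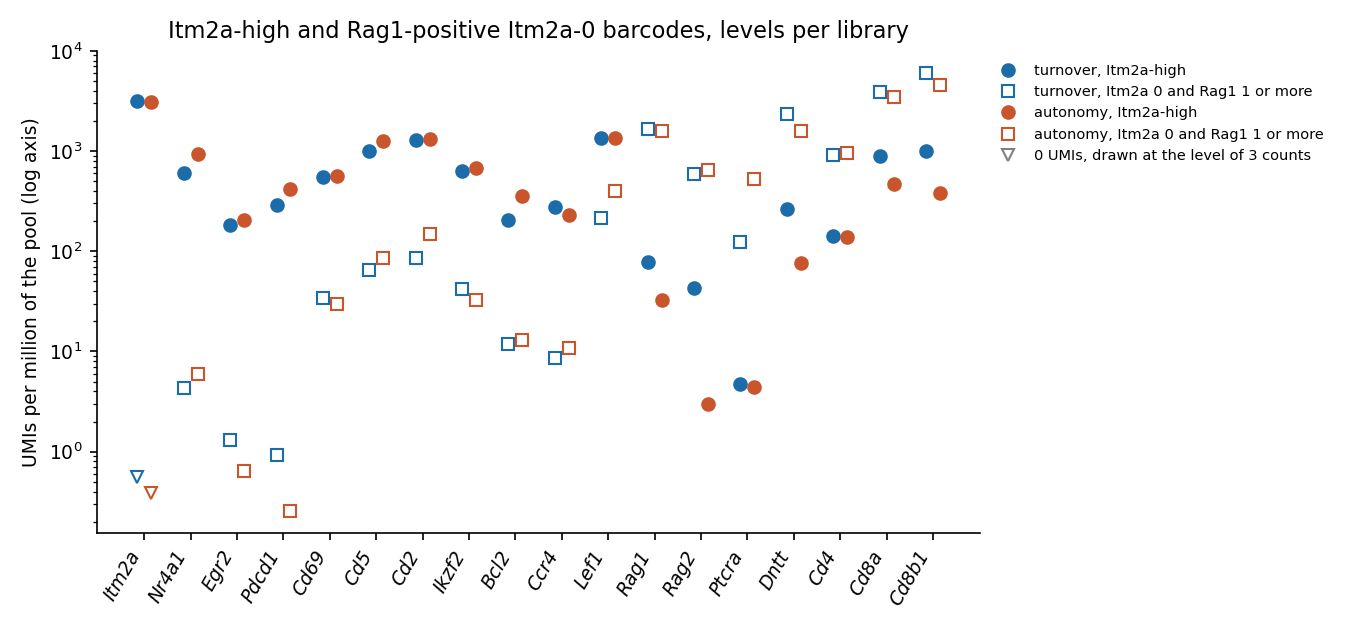
CPM (log axis) of 18 genes in the Itm2a-high cells (filled circles) and the Rag1-positive cells (open squares) of turnover (blue) and autonomy (orange), with triangles for pools with 0 UMIs drawn at the limit of 3 UMIs. The TCR signal genes on the left are higher in the Itm2a-high cells of both libraries, and Rag2, Ptcra, Dntt, Cd4, Cd8a and Cd8b1 on the right are lower.

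The markers were not found in every cell. Nr4a1 was detected in 27 of the 115 turnover cells (23.5%) and 51 of the 139 autonomy cells (36.7%), against 0.281% and 0.570% of Rag1-positive cells. Pdcd1 was detected in 36 (31.3%) and 75 (54.0%), against 0.201% and 0.0633%, and Egr2 in 33 (28.7%) and 46 (33.1%), against 0.161% and 0.0950%. Cd69 was the most widely detected of the 4, in 64 cells (55.7%) and 90 cells (64.7%), against 6.27% and 5.95%. None of the 4 was detected in 35 of 115 turnover cells, 30.4% (exact 95% interval 22.2 to 39.7), and in 24 of 139 autonomy cells, 17.3% (11.4 to 24.6). In the Rag1-positive cells that share was 93.3% and 93.7%. With every cell thinned to 1000 UMIs, none of the 4 was detected in 46.1% and 43.2% of the Itm2a-high cells against 96.6% and 96.7%, so the gap between the 2 libraries was smaller at equal depth. All 4 were detected together in 7 and 14 cells. A few cells also held much of some sums: 5 barcodes gave 61.4% of the Nr4a1 UMIs in turnover and 29.3% in autonomy, and 47.5% and 29.9% of those of Pdcd1.

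Genes were compared when both pools of a library together had at least 100 UMIs, and were counted as higher or lower when they lay at least 2-fold apart. By this rule 250 of 6431 genes were higher in the Itm2a-high cells of turnover (3.89%) and 934 lower (14.5%), and 474 of 7723 were higher in autonomy (6.14%) and 1405 lower (18.2%). Every list count within a library below is to be read beside these shares. The minimum is reached from 239 CPM in the Itm2a-high cells of turnover alone or 18.8 CPM in the Rag1-positive cells alone (148 and 12.8 in autonomy), so weakly expressed genes could be counted more easily when lower. The cells were chosen by genes of these same tables, so the counts describe them and support nothing. The gene lists were also chosen with earlier results of these data known.

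Transcription factors that TCR signals induce were the first list, with 21 genes. In turnover 7 of its 9 tested genes were higher and 1 lower, with a median log2 ratio of 1.65 against -0.18 over all tested genes; in autonomy 9 of 12 were higher and 2 lower, with a median of 2.17 against -0.28. Egr1, an immediate early zinc finger factor, stood at 442 CPM against 18.2 in turnover, 24.3-fold higher, and at 612 against 27.5 in autonomy, 22.3-fold. Nr4a2 and Nr4a3, the relatives of Nur77, had 29 and 18 UMIs in the turnover cells against 3 and 0 in the Rag1-positive cells, and 62 and 48 against 10 and 4 in autonomy, too few for the count. Nfatc1, a calcium-regulated factor that induces its own gene, was 5.08-fold and 7.25-fold higher, and the NF-kB subunit genes Rel (3.15-fold and 4.24-fold) and Nfkb1 (3.04-fold and 3.61-fold) were higher in both libraries too. Nab2, a co-repressor that binds EGR proteins, was 40.8-fold higher in turnover, on 48 and 15 UMIs, and 73.3-fold in autonomy. The AP-1 genes did not move as 1 group: Junb was 2.74-fold and 2.51-fold higher, while Jund was lower, at 0.425 and 0.302 of its level in the Rag1-positive cells. Fos had 11 UMIs in the turnover cells and 17 in the autonomy cells. Myc, a growth regulator, stood at 47.8 CPM against 36.8 in turnover (ratio 1.30, interval 0.777 to 2.06) and at 295 against 18.5 in autonomy, 16.0-fold higher (12.8 to 19.9).

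Genes that mark strong signals or agonist selection made up the next list, with 20 genes. In turnover 5 of 9 tested genes were higher and 0 lower, and in autonomy 6 of 10 and 0. The share of all tested genes that were higher was 3.89% and 6.14%. Ikzf2, the Helios factor of agonist-selected cells, stood at 633 CPM against 42.2 in turnover, 15-fold, and at 676 against 32.8 in autonomy, 20.6-fold. Bcl2l11, which encodes Bim, was 7.33-fold higher in turnover and 3.12-fold in autonomy, where the ratio was 1.53 in the cells with Y-linked and no Xist UMIs. Nfkbid, an atypical inhibitor of NF-kB, was 10.2-fold and 17.9-fold higher. Tnfrsf9, the costimulatory receptor 4-1BB, had 85 UMIs against 12 in turnover and 91 against 11 in autonomy, 90.2-fold and 95.6-fold, but in only 13 and 23 cells, and 5 cells gave 71.8% of the turnover sum. Cd40lg, the ligand of CD40, had 55 UMIs in 20 turnover cells and 81 in 28 autonomy cells and 0 in both Rag1-positive pools, at least 234-fold and 312-fold higher when 3 UMIs per pool stand for 0. The chemokine gene Xcl1 was confined to 2 turnover cells, with 25 UMIs, and 7 autonomy cells, with 47. Not every gene of the list was higher: Tnfrsf18, the receptor GITR, had ratios of 0.736 and 0.894, and Ctla4 had 0 UMIs in the Itm2a-high cells of both libraries.

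Surface markers of positive selection formed a list of 15 genes, all tested, of which 6 were higher and 2 lower in each library. Of all tested genes 3.89% and 6.14% were higher and 14.5% and 18.2% lower, so the lower count was near that share in turnover. Cd5, a negative regulator whose level follows TCR signalling, stood at 1008 CPM against 65.6 in turnover, 15.4-fold (13.3 to 17.7), and at 1258 against 85.6 in autonomy, 14.7-fold (13.3 to 16.3). It was detected in 86.1% and 89.9% of the Itm2a-high cells against 9.28% and 13.0% of the Rag1-positive cells. Cd2, an adhesion receptor, was even more widespread, in 96.5% and 97.8% of cells against 14.1% and 25.6%, and 15.1-fold and 8.79-fold higher. Cd53, a tetraspanin, was 23.4-fold and 15.1-fold higher, Cd28, the costimulatory receptor, 3.38-fold and 3.44-fold, and Cd6, a relative of CD5, 3.47-fold and 2.70-fold. Lower were Ly6d, at 0.140 and 0.0317, and Selplg, the P-selectin ligand, at 0.297 and 0.247. The phosphatase gene Ptprc was close to equal, at 1.11 and 1.18.

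The list of transcription factors of selection and lineage choice had members on both sides. In turnover 4 of 14 tested genes were higher and 2 lower, and in autonomy 5 of 16 and 4. Over all tested genes 3.89% and 6.14% were higher and 14.5% and 18.2% lower, so the lower count was near that share in turnover. Higher in both were Tox (6.29-fold and 7.58-fold), which CD4 lineage cells need to develop, Gata3 (3.22-fold and 3.36-fold), Id3 (4.46-fold and 5.26-fold), an inhibitor of E proteins, and Lef1 (6.23-fold and 3.36-fold). Lef1 stood at 1335 CPM against 214 in turnover and 1338 against 399 in autonomy. Lower in both were Tcf12, which encodes the E protein HEB (0.347 and 0.175), and Klf3 (0.186 and 0.0943). Bcl11b and Tcf7, both T cell identity factors, were at 0.568 and 0.634 in turnover and passed the fold in autonomy, at 0.405 and 0.439.

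Genes of the resting DP cell were lower almost throughout: 0 of 16 tested genes were higher and 15 lower in turnover, with a median log2 ratio of -3.15, and 0 of 15 higher and 13 lower in autonomy, with a median of -3.88. The comparison cells were chosen by Rag1, which belongs to this list, and no other gene of it chose them. Rag1 is included in these counts and medians, and its place among the lower genes was fixed by that choice. Of all tested genes 14.5% in turnover and 18.2% in autonomy were lower. Rag2, the partner of Rag1, stood at 43.0 CPM against 587 in turnover, a ratio of 0.0732 (0.0433 to 0.116), and at 2.96 against 648 in autonomy, 0.00457 (0.000554 to 0.0165), on 2 UMIs. Dntt, the enzyme that adds bases at V(D)J junctions, was at 0.113 and 0.0483, and Ptcra, the pre-TCR alpha chain, at 0.0383 and 0.00846, on 2 and 3 UMIs. Arpp21 (0.0753 and 0.0275), Themis, a TCR signalling adaptor (0.326 and 0.223), Ets2 (0.158 and 0.121), Rmnd5a (0.107 and 0.0643) and Aqp11 (0.113 and 0.0727) were lower in both. Cd24a did not pass the fold, at 1.18 and 1.79. Of the genes outside the lists, P2rx1 had 0 UMIs in the turnover cells and 2 in the autonomy cells against 587 and 2512 in the Rag1-positive cells. Endou was at 0.0686 and 0.0468, Gm525 at 0.0212 and 0.0144, Gm44175 at 0.0439 and 0.00897, B230118H07Rik at 0.0521 and 0.0145, and Gm15340 at 0.0707 and 0.0333.

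Both coreceptors were low in the Itm2a-high cells. Cd4 stood at 141 CPM against 923 in turnover, a ratio of 0.153 (0.116 to 0.197), and at 139 against 966 in autonomy, 0.144 (0.116 to 0.177). Cd8a stood at 884 against 3854 in turnover, 0.229 (0.206 to 0.254), and at 464 against 3459 in autonomy, 0.134 (0.120 to 0.150). Cd8b1 stood at 1013 against 6059 in turnover, 0.167 (0.152 to 0.184), and at 384 against 4590.3 in autonomy, 0.0836 (0.0737 to 0.0945). On the list of 16 CD4 and CD8 lineage genes, 0 were higher and 4 of 8 tested lower in turnover. In autonomy 0 were higher and 6 of 10 lower, where 14.5% (turnover) and 18.2% (autonomy) of all tested genes were lower. The master factors of lineage choice were scarce: Zbtb7b (ThPOK, CD4 lineage) had 0 and 3 UMIs in the Itm2a-high cells, and Runx3 (CD8 lineage) 3 and 16.

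The CD3 chains differed by less than the fold, while several proximal kinases and adaptors passed it. Of 23 genes of the TCR complex and its proximal signalling, all tested, 4 were higher and 3 lower in turnover, and 2 higher and 5 lower in autonomy, with medians of -0.12 and -0.23 on the log2 scale. Over all tested genes 18.4% and 24.3% lay past the fold. Cd3e (0.882 and 0.796), Cd3d (1.04 and 1.13) and Cd3g (1.03 and 1.08), the CD3 chains, stayed within the fold, as did Trac, the alpha constant gene, at 1.70 and 1.73. The kinase gene Lck was lower, at 0.392 and 0.377, and so was the adaptor gene Lat, at 0.408 and 0.381. The genes of Ptpn6, the phosphatase SHP-1 (2.37-fold and 2.0-fold), and Csk, the kinase that holds Lck inactive (2.82-fold and 2.11-fold), were higher. Fyn, the other Src-family kinase of T cells, was 2.79-fold higher in turnover and at 1.40 in autonomy. Over all tested genes 3.89% and 6.14% were higher and 14.5% and 18.2% lower. Of the 24 feedback regulators, 2 of 16 tested were lower in turnover, near that share, and 4 higher. In autonomy 5 of 18 tested were lower and 7 higher. Among them were the MAP kinase phosphatase genes Dusp2 (5.10-fold and 3.30-fold), Dusp5 (4.30-fold and 4.19-fold) and Dusp6 (3.22-fold and 4.27-fold), and Rgs10, a regulator of G protein signalling (6.06-fold and 5.57-fold). Cbl, a ubiquitin ligase, was lower at 0.402 and 0.348, and Sla2, an adaptor that lowers TCR signals, at 0.278 and 0.245.

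**Figure D2:**
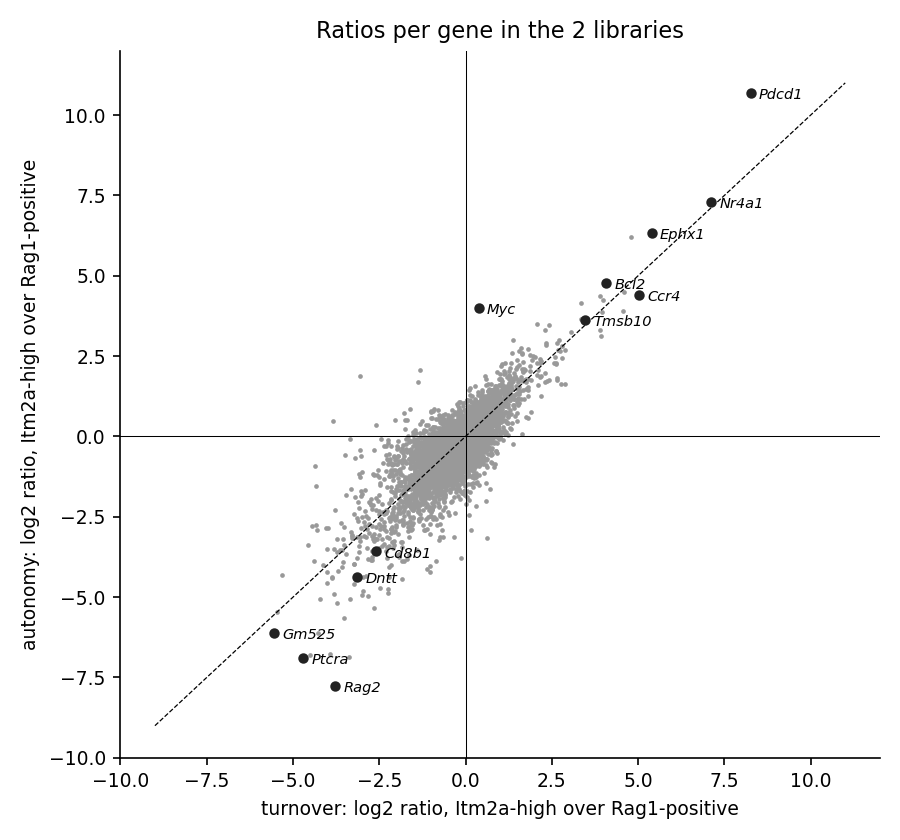
Log2 ratio of each gene between the Itm2a-high and the Rag1-positive cells in turnover (horizontal) and autonomy (vertical), for genes with at least 100 UMIs in both libraries; genes at 0 in a pool are drawn at the limit of 3 UMIs and the dashed line marks equal ratios. Pdcd1, Nr4a1 and Ephx1 lie far up on the right, Rag2 and Ptcra far down on the left, and Pearson's r across the genes is 0.81. Itm2a and Rag1, which the rule used, are left out of the plot but not of r.

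The ratios of the 2 libraries shared no cells but were made by the same rule. Itm2a and Rag1, whose side the rule fixed in both libraries, were kept in the counts and in r. Of 6390 genes tested in both, 183 were higher in both, which was 74.1% of the 247 higher in turnover and 55.8% of the 328 higher in autonomy. Another 602 were lower in both, 66.0% of 912 and 56.1% of 1074. Only 3 were lower in turnover and higher in autonomy, and 0 the other way round. Pearson's r of the log2 ratios across these genes was 0.81, as a description, since genes are not independent.

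Receptors for migration were mixed. Ccr4, a chemokine receptor that appears after positive selection and guides cells to the medulla, stood at 279 CPM against 8.63 in turnover, 32.4-fold (22.9 to 46.6), in 62 cells, and at 228 against 10.8 in autonomy, 21.2-fold (16.1 to 28.0), in 77 cells. Gpr183, an oxysterol receptor, had 46 UMIs against 4 in turnover and 132 against 38 in autonomy, 40.1-fold. Ccr7, the medullary homing receptor of later cells, had 14 and 20 UMIs in the Itm2a-high cells. It was 2.16-fold higher in autonomy but at 0.926 against all cells without Itm2a and at 0.953 with 1 barcode per set of TRB chains, and it was below the count minimum in turnover. Ccr9, the receptor of cortical thymocytes, was close to equal, at 0.905 and 0.762. Lower were Cxcr4, a cortical retention receptor, at 0.291 and 0.379, and Plxnd1, a semaphorin receptor of DP cells, at 0.120 and 0.105.

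Of 15 tested survival genes, 1 was higher and 5 lower in each library, where 3.89% and 6.14% of all tested genes were higher and 14.5% and 18.2% lower. The higher one was Bcl2, the death inhibitor, at 203 CPM against 12 in turnover, 16.9-fold (12.1 to 23.8), and at 354 against 13.0 in autonomy, 27.3-fold (21.6 to 34.8). Bcl2 was detected in 39 and 88 of the Itm2a-high cells. Its relative Bcl2l1, which encodes the DP survival factor Bcl-xL, was lower, at 0.132 and 0.199. The pro-apoptotic genes divided, with Bcl2l11 higher as given above, Bad at 0.381 and 0.359, Bax at 1.74 and 1.89, and Bmf at 0 UMIs against 158 in turnover (a ratio of at most 0.242) and at 0.131 in autonomy. The death receptor gene Fas was at 0.262 and 0.371.

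Other lists showed smaller or partial differences, beside 3.89% and 6.14% of all tested genes higher and 14.5% and 18.2% lower. Of 17 glycolysis genes, 2 of 14 tested were higher and 2 lower in turnover, and 6 of 15 and 1 in autonomy, among them Aldoa (2.39-fold and 2.58-fold) and Pgam1 (2.51-fold and 3.35-fold). Of 20 ribosomal protein genes, 1 was higher in turnover, near the share of all genes, and 4 in autonomy, with Rps2 at 2.08-fold and 3.27-fold. None of the 11 tested MHC class I genes passed the fold in either library. Of 11 Notch receptors and targets, 2 of 3 tested were lower in turnover and 5 of 5 in autonomy. Genes high in the Rag1-positive cells alone reach the minimum more easily, so these counts favour lower genes. The receptor gene Notch1 was at 0.280 and 0.104. Its target Dtx1 had 0 and 9 UMIs against 16 and 2716, too few in turnover for the count. In the Rag1-positive cells Dtx1 was detected in 42.3% in autonomy and 0.603% in turnover, and Ptcra in 51.6% and 15.3%. Of the same autonomy cells 99.8% had Cd8b1 and 88.7% Cd4. Transcripts of the Notch-dependent early stages were thus found in much of the autonomy Rag1-positive pool, and their part in the ratios was not tested. The DN3 markers summed to 40.6 and 77.1 CPM in the Itm2a-high cells, against 278 and 1299 in the Rag1-positive cells.

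Markers of other cell types were summed by list, and their defining genes were read singly. Regulatory T cell markers summed to 788 and 978 CPM in the Itm2a-high cells, against 205 and 238, but Foxp3 and Ctla4 were at 0 UMIs in both libraries, and Ikzf2 carried most of the sum. Izumo1r, the folate receptor FR4 of the same list, had 30 UMIs in 10 turnover cells and 142 in 56 autonomy cells. Markers of mature single positive cells summed to 442 and 563 CPM against 625 and 676, but 2 of that list, S1pr1 and Ms4a4b, had to be at 0 in the Itm2a-high cells and not in the Rag1-positive cells, so the sums cannot be compared. Innate-like and NKT markers had 17 UMIs in turnover and 20 in autonomy, and Zbtb16, the PLZF factor that defines them, had 5 UMIs in 1 turnover cell and 0 in autonomy. Gamma-delta T cell markers had 1 and 5 UMIs, and macrophage markers 4 and 16, or 9.55 and 23.7 CPM against 50.3 and 301 in the Rag1-positive cells. Dendritic cell markers summed to 1844 and 1246 CPM against 2115 and 1821, of which Ccr9, which thymocytes also express, made up 1777 and 1117 CPM in the Itm2a-high cells, and the MHC class II gene H2-Aa had 1 and 2 UMIs there. B cell markers summed to 203 and 122 CPM against 654 and 549, of which Ighm made up 191 and 107 CPM, and Ms4a1 and Pax5 were at 0. Thymic epithelial and stromal markers summed to 54.9 and 68.2 CPM against 111 and 109. Erythroid markers were at 0 in every pool.

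The signal genes were also followed over the number of Itm2a UMIs per cell, in barcodes without Mki67, Top2a, S1pr1 and Ms4a4b. Just outside the rule lay 55 turnover and 29 autonomy barcodes with 2 Itm2a UMIs, and just inside it 15 and 8 with exactly 3. Nr4a1 stood at 192 CPM with 2 UMIs of Itm2a and 19.7 CPM with 3 in turnover, and at 140 and 0 in autonomy; Pdcd1 stood at 67.0 and 39.4, and at 108 and 0. In turnover Nr4a1 was thus lower just inside the rule than just outside it, with 1 UMI in the bin at 3, while Id3 (733 and 1696 CPM) and Lef1 (426 and 868 CPM) were higher inside. In autonomy Id3 stood at 1583 and 1358 CPM and Lef1 at 958 and 1429. Away from it the levels differed widely. In turnover Nr4a1 went from 20.7 CPM at 0 Itm2a UMIs through 257 at 4 to 5 and 759 at 6 or more, and in autonomy from 28.0 through 639 to 1017. Pdcd1 went from 3.5 through 103 to 362 in turnover, and from 1.3 through 295 to 460 in autonomy. Cd69 went from 64.6 to 585 and from 46.9 to 555. Rag1 went the other way, from 1409 CPM at 0 Itm2a UMIs to 230 at 2 and 35.5 at 6 or more in turnover, and from 1415 to 431 and 28.3 in autonomy. Cd8b1 went from 5830 CPM to 672 and from 4513 to 318, and Cd4 from 865 to 139 and from 942 to 122. Cd5 peaked before the last bin, at 1612 CPM with 4 to 5 UMIs against 946 with 6 or more in turnover, and at 1598 against 1245 in autonomy. Depth moved along with the bins, from a median of 1895 UMIs per cell in the first to 2988 in the last in turnover, and from 2286 to 4251.5 in autonomy, and its part was not tested.

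**Figure D3:**
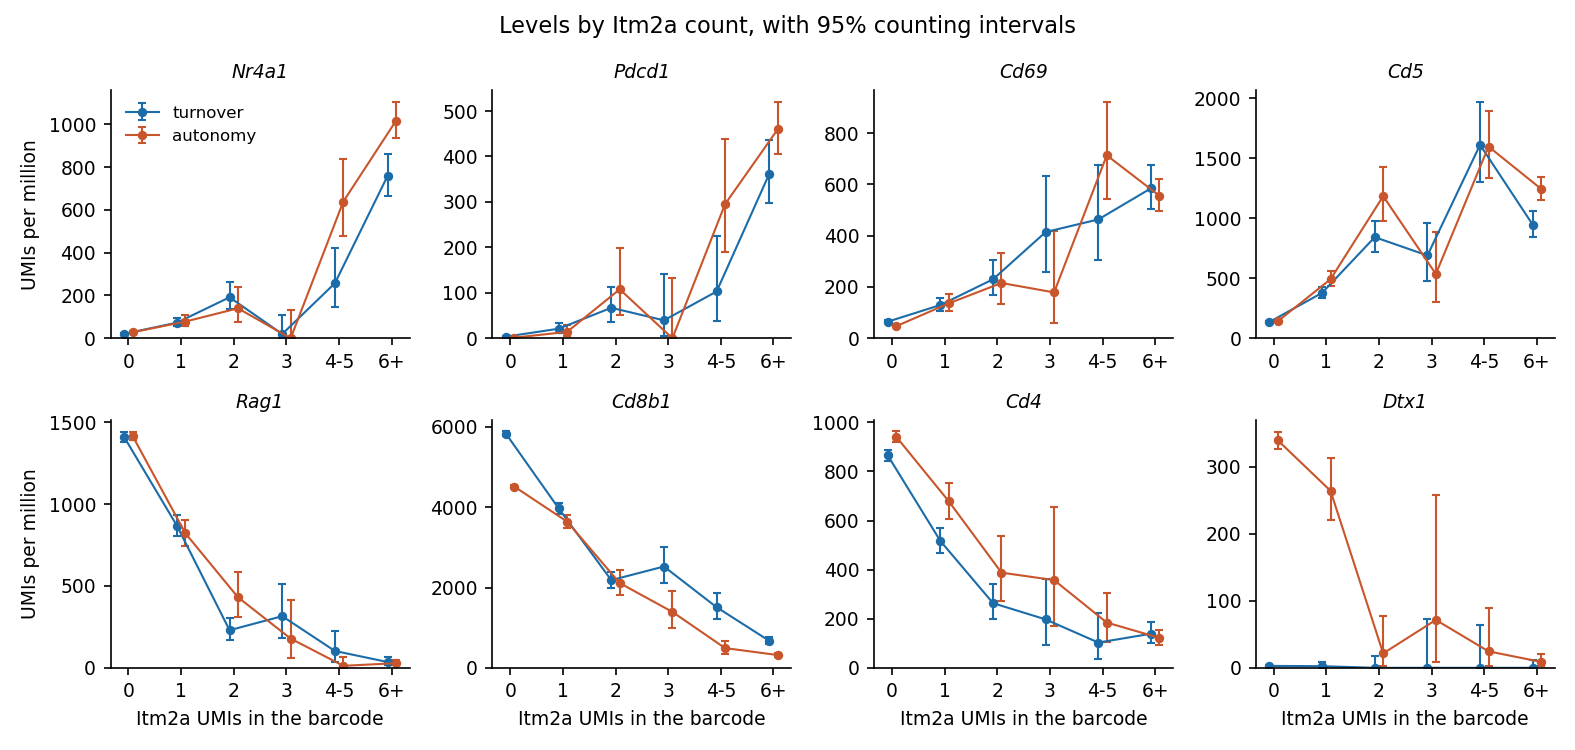
CPM of 8 genes, by the number of Itm2a UMIs in the cell (0, 1, 2, 3, 4 to 5, 6 or more), in turnover (blue) and autonomy (orange), with 95% counting intervals. Nr4a1 and Pdcd1 are highest in the last bin (759 and 362 in turnover), Cd5 peaks at 4 to 5 UMIs, and Rag1, Cd8b1 and Cd4 are highest in the first bin.

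The Itm2a-high cells were not uniform, and Pdcd1 divided them along several genes at once. The 36 Pdcd1-positive turnover cells and 75 autonomy cells were compared with the 79 and 64 without a Pdcd1 UMI. Pdcd1-positive cells had less coreceptor transcript, with ratios of 0.225 in turnover and 0.194 in autonomy for Cd8a, 0.157 and 0.209 for Cd8b1, and 0.0936 and 0.232 for Cd4. They were also lower in the chemokine receptor genes Ccr9 (0.258 and 0.265), Ccr4 (0.368 and 0.420) and Ccr7 (0.215 and 0.030). The Ccr7 ratios rest on 2 against 12 UMIs in turnover and 1 against 19 in autonomy. Higher in Pdcd1-positive cells were Nr4a1 (1.98, interval 1.52 to 2.57, and 2.24, 1.84 to 2.75), Ikzf2 (1.49 and 1.71), Cd40lg (2.25 and 3.01), Tnfrsf9 (2.24 and 3.45) and Myc (3.86, 1.33 to 13.6, and 3.37, 2.27 to 5.19). These intervals do not cover the spread between cells. A few cells held much of the turnover sums of Nr4a1 and Tnfrsf9, as given above, and their part in these ratios was not tested. Egr2 stood at 1.43 in turnover, with an interval of 0.889 to 2.31 that includes 1, and at 1.91 (1.27 to 2.93) in autonomy. All 25 and 47 Xcl1 UMIs lay in Pdcd1-positive cells. Bcl2 was equal, at 0.993 and 1.02, and Cd5 nearly so, at 0.827 and 1.03, while Cd69 was lower in Pdcd1-positive cells of turnover (0.555) and close in autonomy (0.910). Bcl2l11 went apart, at 0.479 in turnover and 1.64 in autonomy. Pdcd1-positive cells were also the deeper ones, with a median of 3352.5 against 2749 UMIs and 4496 against 3913.5, and the part of depth was not tested.

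A second split was by Rag1, of which 9 Itm2a-high cells in each library had a UMI. These cells had more transcript of the other DP genes, with Dntt 9.48-fold and 17.0-fold higher, Cd8b1 3.98-fold and 5.40-fold, and Cd4 3.56-fold and 2.34-fold. Egr2, Cd69 and Id3 differed in opposite ways in the 2 libraries. In turnover these cells had 0.121 of the level of the other cells for Nr4a1, 0.308 for Egr2, 0.342 for Cd69, 0.280 for Id3 and 0.858 for Egr1. In autonomy the ratios were 0.887 for Nr4a1, 2.61 for Egr2, 2.13 for Cd69, 1.99 for Id3 and 3.08 for Egr1. With 9 cells a library, these ratios are thinly supported, and free RNA or a second cell under 1 barcode as a source of the DP transcripts was not tested.

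The TCR contigs gave a readout that the rule had not used. A productive TRA chain was found in 106 of 115 Itm2a-high cells of turnover, 92.2% (exact 95% interval 85.7 to 96.4), against 1056 of 2489 Rag1-positive cells, 42.4%. In autonomy it was found in 129 of 139, 92.8% (87.2 to 96.5), against 1182 of 3158, 37.4%. Productive TRB chains differed less, at 92.2% against 88.3% in turnover and 95.7% against 70.6% in autonomy. Both chains together were found in 86.1% against 38.4% and in 89.9% against 28.6%. More than 1 productive TRA chain was found in 19.8% of Itm2a-high cells with a TRA chain in turnover, against 9.47%, and in 16.3% against 8.54% in autonomy. More than 1 TRB chain was found in 5.66% against 6.96% and in 4.51% against 10.0%. Each TRA chain had a median of 7 UMIs in the Itm2a-high cells and 3 in the Rag1-positive cells of both libraries, so the chain was also better covered in the former. Counting only contigs of at least 3 UMIs, the shares with a TRA chain were 87.0% against 27.1% in turnover and 84.9% against 21.5% in autonomy. The TRA share also followed the number of Itm2a UMIs, from 44.7% at 0 through 78.2% at 2 to 96.2% at 6 or more in turnover, and from 39.0% through 72.4% to 94.6% in autonomy.

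The J segments of the TRA chains were compared by number, and their order depended on the depth of the cells. TRAJ segments are numbered downward toward the constant gene, and successive rearrangements of 1 locus move toward low numbers. The median TRAJ number was 31 (quartiles 21 to 40) over 127 chains in the Itm2a-high cells of turnover and 26 (12 to 38) over 1159 chains in the Rag1-positive cells. In autonomy it was 23 (13 to 35) over 150 chains and 19.5 (7 to 32) over 1284. Chains with a TRAJ number below 30 made up 44.1% against 55.6% in turnover and 58.0% against 67.4% in autonomy. With at least 2000 UMIs per barcode the order turned in turnover, at a median of 31 in the Itm2a-high cells against 37 in the Rag1-positive cells, and the medians were 23 and 22 in autonomy. In autonomy they were also 23 and 22 with 1 barcode per set of TRB chains, and 23.5 and 23 in the cells with Y-linked and no Xist UMIs. A shift between the pools is therefore not established. TRAV11 with TRAJ18, the invariant chain of NKT cells, was found in 1 of the 127 turnover chains and 0 of the 150 autonomy chains.

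**Figure D4:**
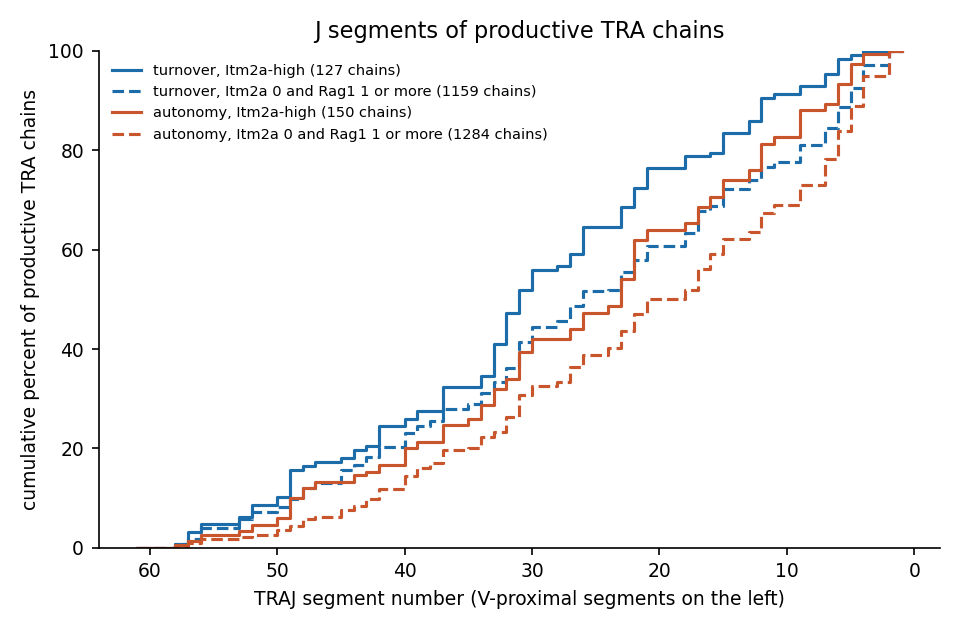
Cumulative percent of TRA chains by TRAJ number, with segments near the V genes on the left, for Itm2a-high cells (solid) and Rag1-positive cells (dashed) of turnover (blue) and autonomy (orange). In each library the solid line lies mostly above the dashed one, with medians of 31 against 26 in turnover and 23 against 19.5 in autonomy, while with at least 2000 UMIs per barcode, not drawn, they are 31 against 37 and 23 against 22.

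TRB repeats set the libraries apart, while TRA chains were diverse in both. Among the turnover Itm2a-high cells all 112 TRB chains differed, and the most frequent TRB chain of that library, out of 3912, was held by 3 barcodes. In autonomy the Itm2a-high cells held 95 different TRB chains, of which 29 occurred in at least 2 of them, covering 70 cells. That library had 828 different TRB chains, and the largest was TRB chain 4 above, in 191 barcodes. A TRB chain shared with at least 1 other barcode of the library was carried by 2 of 106 turnover cells, 1.89%, against 2.55% of Rag1-positive cells, and by 111 of 133 autonomy cells, 83.5%, against 89.2%. With 1 barcode per set of TRB chains the shares in autonomy were 76.8% and 59.6%. Repeats were collapsed within each pool, while sharing was still counted over the whole library. The larger pool therefore lost more shared barcodes, and the order of these 2 shares cannot be read. The 34 autonomy TRB chains held by at least 20 barcodes were carried by 42 Itm2a-high cells, 31.6% (23.8 to 40.2), against 1070 Rag1-positive cells, 48.0% (45.9 to 50.1). The intervals treat cells of 1 clone as independent, which they are not. TRB chain 4, the most frequent, was carried by 3.01% of Itm2a-high cells with a TRB chain (0.825 to 7.52) against 6.01% of Rag1-positive cells (5.06 to 7.08). Several less frequent chains of this size class were held by 0 Itm2a-high cells. An example, picked for its count of 0, is TRBV19 with TRBJ2-1 in 63 barcodes, carried by 2.20% of Rag1-positive cells. The interval of its 0% in the Itm2a-high cells, 0 to 2.74, includes that share. Other chains of this size class went the other way, with 3.76% against 2.51% for TRB chain 1, 3.76% against 0.942% for TRB chain 2 and 3.76% against 0.538% for TRB chain 3, which were picked for being held by many Itm2a-high cells. The interval of each 3.76% was 1.23 to 8.56, which includes the 2.51% of TRB chain 1. All 127 TRA chains of turnover differed, and so did 149 of the 150 of autonomy.

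Between the conditions, the Itm2a-high cells of autonomy and turnover differed in few genes. Of 1940 genes tested, 128 lay at least 2-fold apart (6.6%), of which 108 were higher in autonomy (5.57%) and 20 lower (1.03%), with a median log2 ratio of 0.02. None of the markers was among them: Nr4a1 stood at a ratio of 1.55 (1.34 to 1.80), Pdcd1 at 1.47 (1.18 to 1.83), Egr2 at 1.13 (0.845 to 1.51), Cd69 at 1.02 (0.864 to 1.21) and the rule gene Itm2a at 0.992 (0.925 to 1.06). A difference between 2 libraries is not a difference between conditions. Where the level in the Rag1-positive cells is given beside a gene, it shows whether these moved as well.

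Of 18 interferon response genes, 4 reached the count minimum, and all 4 were higher in the Itm2a-high cells of autonomy. Their median log2 ratio was 2.53, and of all tested genes 5.57% were higher. Genes that are high in autonomy alone reach the minimum more easily, so this count favours higher genes. Of the 14 with at least 10 UMIs, 12 were at least 2-fold higher and 0 lower. Ifi27l2a stood at 560.2 CPM in autonomy and 35.8 in turnover, 15.6-fold apart (9.36 to 28.2), and at 145 and 16.7 CPM in the Rag1-positive cells. Isg15, a ubiquitin-like modifier, was 6.89-fold higher (4.30 to 11.7), against 172 and 27.9 CPM in the Rag1-positive cells, and Rtp4 4.82-fold, against 132 and 29.1. Ifi27, which was not on that list, was 3.22-fold higher, against 454 and 155. The Rag1-positive cells of autonomy were thus higher in Ifi27l2a, Isg15, Rtp4 and Ifi27 as well. So were those for Tcf3, which encodes the E proteins E12 and E47 (5.16-fold in the Itm2a-high cells, 262 against 72.9 CPM in the Rag1-positive cells), and for the splicing factor gene Srsf2 (3.54-fold, 417 against 140). In the cells with Y-linked and no Xist UMIs, which were 57 Itm2a-high cells of turnover and 24 of autonomy, the ratio was 6.57 for Ifi27l2a, 1.41 for Isg15 and 1.62 for Ifi27, so that Isg15 and Ifi27 no longer passed the fold. Differences of host or handling between the libraries cannot be told apart from the condition.

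Myc was 6.17-fold higher in those of autonomy (3.89 to 10.3), at 295 against 47.8 CPM, and 13.8-fold without the 5 deepest barcodes of each library, while in the Rag1-positive cells it stood at 18.5 CPM in autonomy and 36.8 in turnover. Among the signal-induced genes, Nfkbid (2.63-fold), Nfatc1 (2.25-fold), Ier2 (2.20-fold), Jund (2.85-fold), Dusp2 (2.36-fold), Dusp5 (2.79-fold) and Izumo1r (2.94-fold) were also higher in autonomy. For Jund, Dusp2 and Dusp5 the ratio to the Rag1-positive cells, given above, was smaller in autonomy than in turnover. The Rag1-positive cells of autonomy were thus higher in these genes as well. Jund was lower in the Itm2a-high cells than in the Rag1-positive cells of both libraries. In the cells with Y-linked and no Xist UMIs the ratio was 0.685 for Nfkbid, 1.28 for Nfatc1 and 1.54 for Dusp5. The calcium channel gene Orai1 was 5.23-fold higher and the potassium channel gene Kcna3, which sustains calcium entry in T cells, 4.86-fold. On the list of TCR-induced factors, 4 of 8 tested genes were higher in autonomy and 0 lower. On the list of strong-signal genes it was 1 of 9 and 0, where 5.57% of all tested genes were higher and 1.03% lower.

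Among the genes lower in autonomy were some that were also low relative to the Rag1-positive cells. Cd8b1 was at 0.379 of the turnover level (0.323 to 0.443), and at 4590.3 against 6059 CPM in the Rag1-positive cells. Dntt was at 0.291 (0.205 to 0.408) and Ly6d at 0.218 (0.135 to 0.341), the latter in 9 cells of each library with 31 UMIs in 1 turnover cell. Cd8a was at 0.525 and did not pass the fold. The calpactin gene Anxa2 was at 0.307 and the galectin gene Lgals1 at 0.366. Trbc1, a TRB constant gene, was at 0.424, and lay at 543 against 1290 CPM in the Rag1-positive cells. Of the 134 Hmgb2 UMIs in turnover 59 came from 1 cell, and of the 83 of Nrgn 47 did, so the ratios of 0.306 and 0.277 rest largely on single cells, and that of Nrgn was 1.51 without the 5 deepest barcodes of each library.

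**Figure D5:**
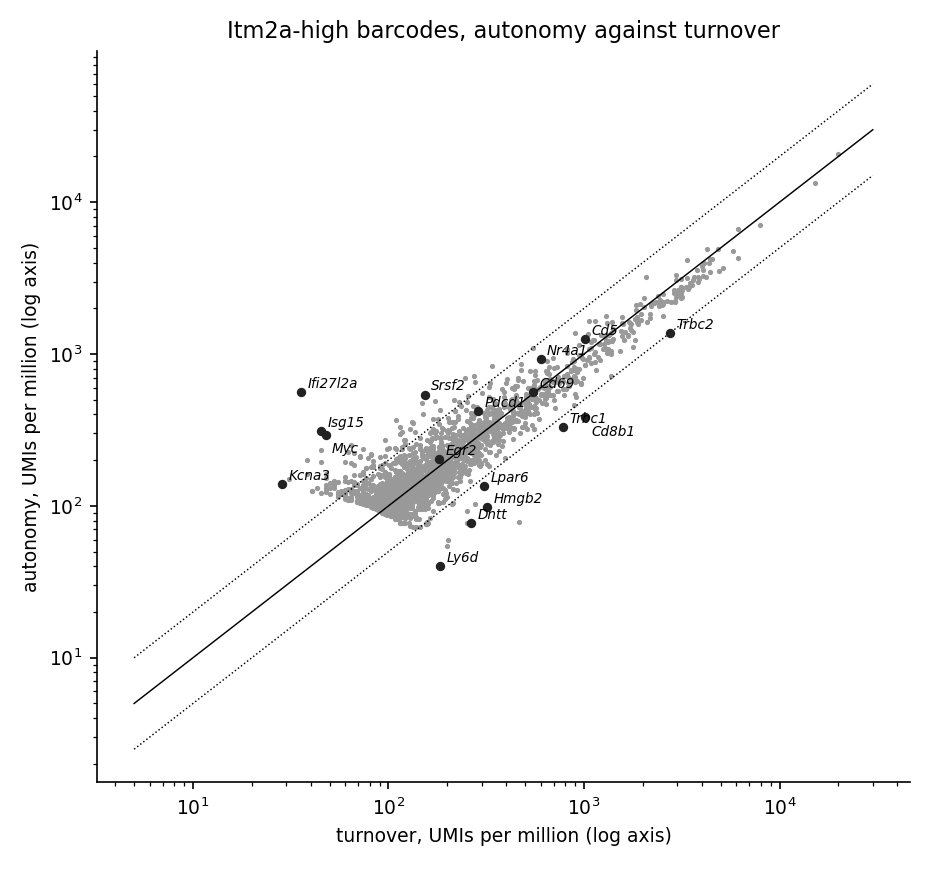
CPM of each tested gene in the Itm2a-high cells of turnover (horizontal) and autonomy (vertical), log axes, with dotted lines 2-fold apart. Most genes lie between the lines, with Ifi27l2a, Isg15 and Myc above them and Ly6d, Dntt and Cd8b1 below.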

How the data were processed

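UMI counts per gene and barcode were deposited for 2 gene expression libraries, with the UMI and read counts and the calls of each TCR contig for 2 matched V(D)J libraries (10x 5′ chemistry, per the labels' protocols). Cell Ranger 3.0.2, Seurat 3.1.3.9002 and the build mm10 are named per the submitters' processing notes, with no account of which step each served, so cell filters are not given in the sources used here. Calls such as productive and full length were used as deposited. Of 31053 gene symbols, 25166 matched RefSeq on GRCm38.p6, whose positions are printed.

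Members, gene lists and comparisons were chosen with earlier results of these data known. UMIs were summed over the barcodes of a pool, divided by the pool's total and given as CPM. Ratios carry exact conditional binomial intervals and shares Clopper-Pearson intervals, both at 95%, for counting error only, since PCR and capture effects are shared within a cell. With 1 library per condition no p-value was computed. A gene was tested with at least 100 UMIs over both pools, and a pool at 0 was set to 3 counts for a bound. Named genes were the 5 markers, the list members, and the 12 highest and 12 lowest by the interval bound nearest 1 in each comparison, leaving out the genes of the rule, TCR segments, Xist and Y-linked genes, with others named in passing after their values were seen. Some genes that this rule names are not reported here. Productive chains were matched by V, J and CDR3 bases. Scripts ran in Python 3.11.15 with pandas 2.3.3, scipy 1.17.1, matplotlib 3.10.9 and numpy 2.4.6, and in R 4.3.3 with edgeR 4.0.16 for TMM factors only, and were tested on simulated data. Alternatives covered the UMI, Itm2a and gene minima, cell quality, the comparison pool, depth, scaling, sex and repeated TRB chains.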

Additional observations from a re-analysis of the deposited data

Results flagged for a closer look

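The segment genes Trav13d-1, Trav14n-3 and Trav4-3 lay on opposite sides of the Rag1-positive cells in the 2 libraries, by the gene counts. Trav13d-1 had 4 UMIs in the Itm2a-high cells of turnover, a ratio of 0.386 (0.104 to 1.01), and 37 in those of autonomy, a ratio of 3.24 (2.19 to 4.69). For Trav14n-3 the ratios were 0.401 (0.108 to 1.05), on 4 UMIs, and 4.17 (2.87 to 5.96), on 43. For Trav4-3 they were 0.120 (0.00301 to 0.684), on 1 UMI, and 3.66 (2.47 to 5.31), on 38. The turnover intervals of Trav13d-1 and Trav14n-3 include 1, so these genes are not shown to be lower there. The difference between the libraries was not tested, and segment genes with near-identical copies can share reads.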

How the results depend on the processing

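No paired analysis was possible because each condition was 1 library. The minimum of UMIs per gene set the number of genes counted: with 10 UMIs in place of 100 it was 2365 in turnover, 2967 in autonomy and 1413 between the libraries, and with 500 it was 342, 698 and 7, against 1184, 1879 and 128. A barcode minimum of 2000 UMIs left 716 in turnover. Cells with Y-linked and no Xist UMIs left 926 in autonomy and 17 between the libraries, and thinning to 1000 UMIs left 14 there, with fewer UMIs to test. The percent of Itm2a-high barcodes in turnover was 4.02 with Itm2a at 2 or more, 2.08 with 5 or more and 4.67 with 2000 UMIs per barcode. In autonomy it was 3.81 with Itm2a at 2 or more, 4.06 with 2000 UMIs, 4.71 with 1 barcode per TRB set and 2.57 with the Y-linked cells only. For the 4.71, repeats were collapsed apart in the Itm2a-high cells and in all other barcodes. The larger pool lost more barcodes, so this percent is not a like comparison. The percent with a TRA chain in autonomy was 84.9 with contigs of at least 3 UMIs, against 21.5 in the Rag1-positive cells. The median TRAJ numbers changed order in turnover with 2000 UMIs per barcode (31 against 37). TMM scaling moved all ratios by 0.04 (turnover), 0.12 (autonomy) and -0.07 (between) on the log2 scale. Of 8732 values of single genes under the alternatives 7994 stayed, 732 moved and 6 changed side: Ccr7 in autonomy (0.953 with 1 barcode per TRB set, 0.926 against all cells without Itm2a), Isg20 in autonomy (0.809 with Y-linked cells), Nfkbid between the libraries (0.685 with Y-linked cells), Nrgn between them (1.51 without the 5 deepest barcodes of each) and Plac8 in turnover (1.03 with Itm2a at 2 or more). The causes were not tested. Leaving out shared barcodes, barcodes with several productive chains and the 5 deepest barcodes was chosen after seeing the data.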

Other observations

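Outside the lists, the most abundant transcript among the higher genes was Tmsb10, an actin-binding thymosin, at 19888 CPM against 1819 in turnover, 10.9-fold, and at 20815 against 1680.4 in autonomy, 12.4-fold. Cldn10, a tight junction claudin, was 51.8-fold higher in turnover and 79.1-fold in autonomy. Ephx1, an epoxide hydrolase, was 41.9-fold and 80.1-fold higher, and Hivep3, a zinc finger factor, 27.7-fold and 73.7-fold.

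TRAV4 family segments made up 27 of 150 TRA chains in the Itm2a-high cells of autonomy, 18.0% (exact 95% interval 12.2 to 25.1), against 6.70% (5.39 to 8.21) of chains in the Rag1-positive cells. In turnover they made up 9.45% (4.98 to 15.9) against 6.38% (5.05 to 7.95). TRAV4 was singled out after its values were seen, among all TRAV families.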
